A study of Physcomitrium patens with 4 samples.

Results

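These 106 genes of the moss Physcomitrium patens took a larger share of the reads after 1 hour of red light than in the dark in the pubs hy2 double mutant, and a smaller share in wild type. They were chosen from 32273 genes in the deposited tables by the values themselves. A gene had to hold at least 40 reads in the pubs hy2 red light library and in the wild-type dark library, and under 10% multi-mapping reads (reads that match several places in the genome) in all 4 libraries. Among the 15845 genes that met these limits, called eligible here, a member had a red light over dark fold of at least 1.5 in pubs hy2 and of at most 0.5 in wild type. The folds were shares of the library's summed reads after adding 0.5 to each count. Both red light folds, and everything computed from them, are therefore descriptions of how the genes were picked and carry no test.

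Phytochromes are the red and far-red light receptors of plants. They carry a linear tetrapyrrole (bilin) as chromophore, and red light converts them to a form that, in land plants, alters the transcription of many genes. PUBS and HY2 are bilin reductases: the moss PUBS makes phycourobilin and HY2 makes phytochromobilin, and per the labels their double mutant is phytochrome-deficient. In moss protonema, the young filamentous tissue, phytochrome is known for its part in phototropism, branching and chloroplast movement.

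The 4 libraries were pubs hy2 after 1 hour of red light, pubs hy2 in the dark, wild type after 1 hour of red light and wild type in the dark, with 1 library per group. All came from the Gransden2004 ecotype, from 10-day-old chloronema that had spent 3 days in darkness at 25 °C, and the light was 660 nm at 5 μmol per square metre per second. The dark libraries were time 0 controls, so an effect of red light cannot be told apart from one of the elapsed hour. Whether the mutant is 1 line or several, and whether cultures were pooled, is not given in the sources used here. In these bulk samples fewer cells of a type and less RNA per cell cannot be told apart.

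Reads on genes summed to 22975725 in pubs hy2 red light, 15098951 in pubs hy2 dark, 24560047 in wild-type red light and 17560593 in wild-type dark. No group had a replicate, so intervals below cover counting error only, and higher or lower refers to libraries. The files pair the gene identifiers with no names, and 0 of the 32273 identifiers matched the RefSeq gene table. Roles of the members, the PUBS and HY2 transcripts and markers of chloronema were therefore not analysed here.

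In the pubs hy2 red light library the members had between 40 and 46555 reads, with a median of 130.5, and in the pubs hy2 dark library between 4 and 14747, with a median of 43. In the wild-type red light library they had between 3 and 77761 reads, with a median of 56.5, and in the wild-type dark library between 40 and 130005, with a median of 126. The read minimum applied to the libraries in which a member is high, so a gene could enter with very few reads in the other 2. In pubs hy2, 67 of the 106 folds lay between 1.5 and 2, 30 between 2 and 3, and 9 higher, and the median was 1.84. In wild type, 42 folds lay between 0.4 and 0.5, 40 between 0.25 and 0.4, 17 between 0.1 and 0.25, and 7 lower, with a median of 0.366.

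**Figure D1:**
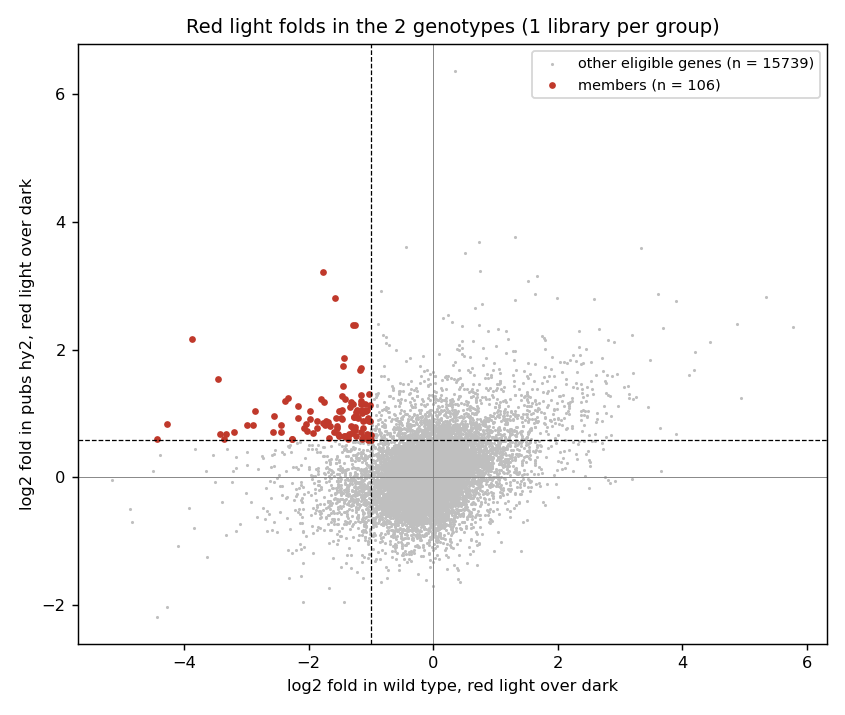
Log2 fold of red light over dark in wild type (x axis) and in pubs hy2 (y axis) for 15845 eligible genes, with 1 library per group. The 106 members (red) fill the corner beyond the dashed limits (1.5 for pubs hy2, 0.5 for wild type), at up to 9.27-fold in pubs hy2 and down to 0.0464-fold in wild type.

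Of the eligible genes, 1623 (10.2%) passed the limit in pubs hy2, 825 (5.21%) passed that in wild type and 106 (0.669%) passed both. Members thus made up 12.8% of the genes reduced in wild type and 6.53% of those raised in pubs hy2. Pooled over expression levels, the share among genes reduced in wild type is near the 10.2% of all eligible genes. In 5 bins by level, described below, these 2 shares were 20.5% and 17.3% in the lowest bin and 2.78% and 6.85% in the highest. In the bins between, they were 9.23% to 9.62% and 7.92% to 10.2%. The Spearman correlation of the 2 folds over eligible genes was 0.31. The 2 folds share no library. The mirrored pattern, a fold of at most 0.667 in pubs hy2 and at least 2 in wild type with the same 40-read minimum in the libraries where such genes are high, held for 29 of 15475 genes (0.187%).

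The counting interval of a fold is the exact 95% Clopper-Pearson interval on the red light library's part of a gene's reads, rescaled to equal depth. It lay above 1 in pubs hy2 for 103 members and below 1 in wild type for all 106, and both held for 103 members (0.65% of eligible genes). The intervals use the reads and folds by which the members were chosen, so these counts are descriptions and carry no test. Without the fold limits, 7.33% of eligible genes had both intervals on these sides of 1. The 3 members whose pubs hy2 interval included 1 were Pp1s150_19V6, Pp1s297_72V6 and Pp1s98_171V6. The stricter demand that both intervals lie wholly past the limits of 1.5 and 0.5 left 17 members (0.107% of eligible genes). When a variation between cultures of 0.2 (coefficient of variation) was assumed for every library, a choice made after seeing the data, both intervals excluded 1 for 41 members. The share of eligible genes on this measure is not given here. The assumed value was below the common coefficient of variation of 0.239 in the additive edgeR fit described below.

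Genes just inside and just outside the limits had nearly the same values. In pubs hy2 the lowest folds among members were 1.509 for Pp1s321_33V6, 1.509 for Pp1s34_423V6 and 1.51 for Pp1s154_115V6. The nearest genes that failed by this limit alone were Pp1s72_301V6 (1.49), Pp1s309_28V6 (1.48) and Pp1s161_107V6 (1.48). In wild type the highest folds among members were 0.4998 for Pp1s58_193V6, 0.499 for Pp1s34_423V6 and 0.495 for Pp1s128_63V6. Just past that limit lay Pp1s217_66V6 (0.5003), Pp1s4_432V6 (0.5004) and Pp1s57_17V6 (0.501).

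The widest opposition between the genotypes belonged to Pp1s53_125V6, a gene of 1.26 kb in the files. It had 271 reads in pubs hy2 after red light and 39 in pubs hy2 in the dark, against 5 in wild type after red light and 57 in wild type in the dark. Its red light fold was 4.52 in pubs hy2 (95% counting interval 3.26 to 6.56) and 0.0684 in wild type (0.0196 to 0.155). The dark libraries were close, with a pubs hy2 over wild type fold of 0.799 (0.516 to 1.22), and this interval included 1. The pubs hy2 over wild type fold in red light was 52.8 (24.5 to 180).

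Pp1s9_28V6 and Pp1s49_2V6 came next and had most of their ratio from wild type. Pp1s9_28V6 had 74 reads in pubs hy2 after red light and 27 in the dark, against 3 in wild type after red light and 48 in the dark. Its fold was 1.78 (1.15 to 2.91) in pubs hy2, and 0.0516 (0.0089 to 0.139) in wild type. Pp1s49_2V6 had 254 and 110 reads in pubs hy2 after red light and in the dark, and 7 and 115 in wild type. This gene had the lowest wild-type fold of the members, 0.0464 (0.0171 to 0.0926), while its fold of 1.51 (1.21 to 1.92) in pubs hy2 only just passed the limit. Both genes rest on single-digit counts in 1 library, and their wild-type intervals are wide.

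Pp1s563_1V6 and Pp1s213_129V6 were also reduced about 10-fold in wild type, with more reads. Pp1s563_1V6 had 372 and 152 reads in pubs hy2 after red light and in the dark, and 69 and 534 in wild type, a pubs hy2 fold of 1.61 (1.33 to 1.96) and a wild-type fold of 0.093 (0.0708 to 0.119). Pp1s213_129V6 had 582 and 239 reads in pubs hy2 and 61 and 443 in wild type, a fold of 1.6 (1.37 to 1.87) in pubs hy2, and 0.0991 (0.0741 to 0.129) in wild type. In both genes the wild-type red light library stood lowest, well below the pubs hy2 dark library. Pp1s357_48V6 differed in lying well past the limit in both genotypes. It had 210 and 47 reads in pubs hy2 and 20 and 160 in wild type, with folds of 2.91 (2.13 to 4.12) in pubs hy2, and 0.0913 (0.0532 to 0.143) in wild type.

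The highest folds in pubs hy2 belonged mostly to genes with very few reads in the pubs hy2 dark library. Pp1s309_38V6 had 63 reads in pubs hy2 after red light and 4 in the dark, against 31 in wild type after red light and 76 in the dark. Its fold was 9.27 (3.85 to 39.2) in pubs hy2, the highest of the members, and 0.294 (0.186 to 0.448) in wild type. Pp1s149_26V6 had 58 and 5 reads in pubs hy2 and 123 and 263 in wild type, a fold of 6.99 (3.09 to 24.4) in pubs hy2, and 0.335 (0.268 to 0.416) in wild type. Here the mutant stayed below wild type in red light as well, with a pubs hy2 over wild type fold of 0.506 (0.362 to 0.694). Pp1s283_60V6 had 107 and 13 reads in pubs hy2 and 187 and 320 in wild type, with folds of 5.23 (3.03 to 10.5) in pubs hy2, and 0.418 (0.347 to 0.502) in wild type. Pp1s187_93V6 had 75 and 9 reads in pubs hy2 and 33 and 58 in wild type, with folds of 5.22 (2.74 to 12.4) in pubs hy2, and 0.409 (0.257 to 0.634) in wild type. The 10 highest pubs hy2 folds and the 10 lowest wild-type folds had 2 genes in common, Pp1s53_125V6 and Pp1s357_48V6.

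**Figure D2:**
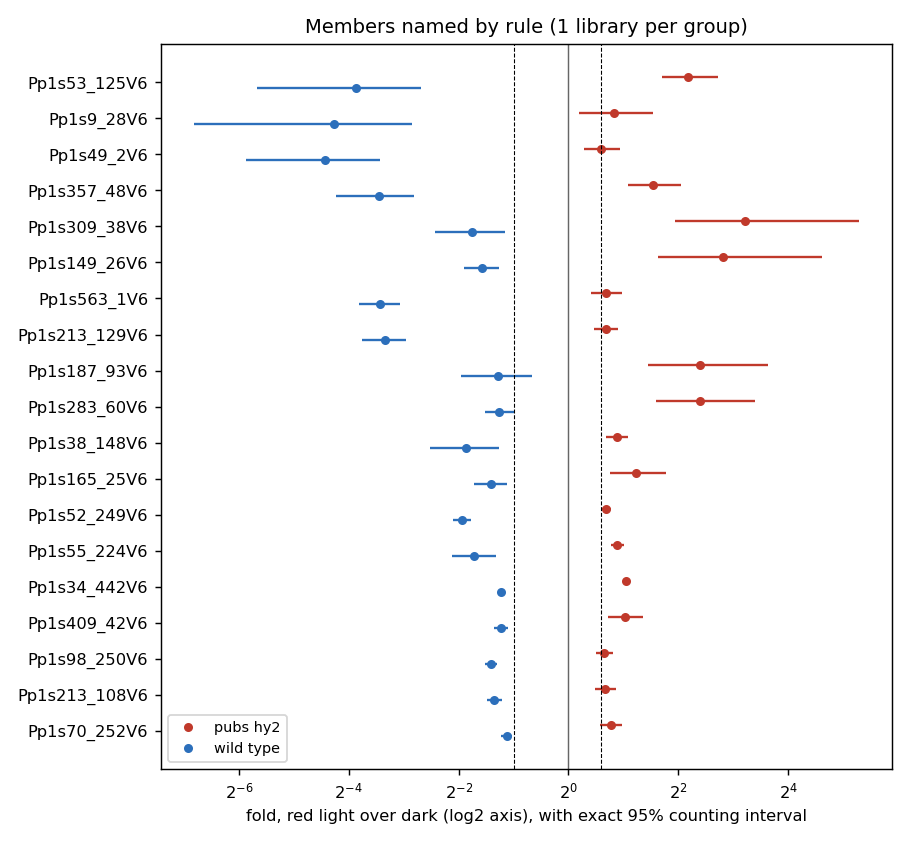
Red light over dark folds (log2 axis) of 19 members picked by rank for the ratio of folds, either fold, abundance or the genotype difference, with exact 95% counting intervals, for pubs hy2 (red) and wild type (blue). Dashed lines mark the limits of 0.5 and 1.5, and genes run down the page from the highest ratio of folds to the lowest, with intervals widest for the genes of few reads.

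Abundant members with many reads showed the pattern with narrow counting intervals. Pp1s34_442V6 stood far above the rest, at 1783 RPKM in pubs hy2 after red light and 864 RPKM in pubs hy2 in the dark, against 2737 RPKM in wild type after red light and 6517 RPKM in wild type in the dark. RPKM is the authors' read number per kilobase of gene, scaled to library size. By RPKM it ranked 14th and 40th of all genes in pubs hy2 after red light and in the dark, and 14th and 5th in wild type, where it took 0.74% of all dark reads. Its folds were 2.07 (2.04 to 2.11) in pubs hy2, and 0.428 (0.424 to 0.431) in wild type. Both pubs hy2 libraries lay below both wild-type ones, and in red light the pubs hy2 over wild type fold was 0.64 (0.633 to 0.647).

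The next abundant members were more than 10 times lower. Pp1s213_108V6 had 47.6 and 30 RPKM in pubs hy2 after red light and in the dark, against 38.7 and 101 RPKM in wild type, with folds of 1.6 (1.4 to 1.82) in pubs hy2, and 0.392 (0.356 to 0.43) in wild type. Pp1s98_250V6 had 25.9 and 16.6 RPKM in pubs hy2 and 22.7 and 61.4 RPKM in wild type, with folds of 1.57 (1.41 to 1.74) and, in wild type, 0.376 (0.35 to 0.403). In both genes the 2 genotypes were nearly level in red light and apart in the dark. Pp1s52_249V6 had 77.5 and 48.3 RPKM in pubs hy2 and 6.66 and 26 RPKM in wild type, so that both mutant libraries lay above both wild-type ones. Pp1s165_25V6 had 33.9 and 14.4 RPKM in pubs hy2 and 27.9 and 75.9 RPKM in wild type. It owed its place to a length of 0.177 kb, at which 43 to 265 reads per library gave these RPKM values. Its folds had wider intervals, at 2.35 (1.68 to 3.4) in pubs hy2, and 0.376 (0.303 to 0.462) in wild type.

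The rule fixes that the red light library exceeds the dark one in pubs hy2 and falls short of it in wild type, which leaves 6 possible orders of the 4 libraries. For 33 members the order from high to low was wild-type dark, pubs hy2 red light, pubs hy2 dark and wild-type red light. For 29 it was wild-type dark, pubs hy2 red light, wild-type red light and pubs hy2 dark. For 23 the pubs hy2 red light library was highest, followed by wild-type dark, pubs hy2 dark and wild-type red light. Both pubs hy2 libraries lay above both wild-type ones in 10 members and below both in 11. The sixth order, with pubs hy2 red light highest and pubs hy2 dark lowest, occurred in 0 members.

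**Figure D3:**
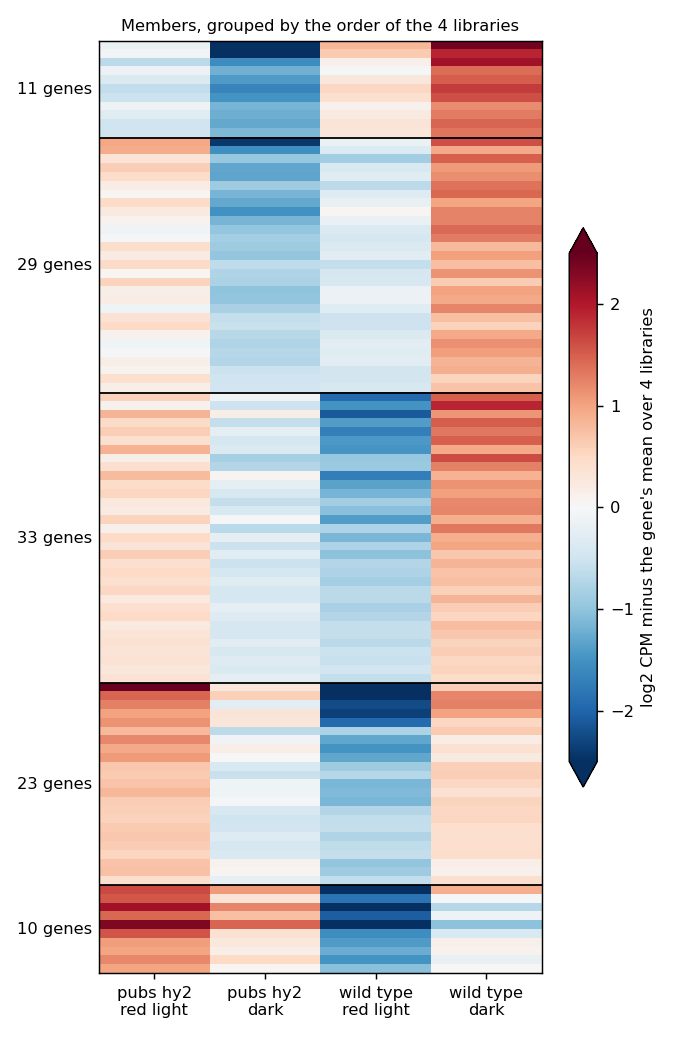
Log2 CPM (reads scaled to the library's summed reads) of the 106 members in each library, minus the gene's mean over the 4 libraries, red for high and blue for low. Rows are genes, grouped by the order of the libraries, with 11, 29, 33, 23 and 10 genes from top to bottom, and the low library moves from pubs hy2 dark at the top to wild-type red light at the bottom.

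Between the genotypes, the rule forces the pubs hy2 over wild type fold to be at least 3 times larger in red light than in the dark, but not where the 2 folds lie. In the dark the fold had a median of 0.41 over the members and 0.865 over eligible genes. It was at most 0.5 in 67 members, against 12.2% of eligible genes, and at least 2 in 2 members, against 8.91%. In red light the median was 2.24 over the members and 0.916 over eligible genes, with 63 members at 2 or more, against 11.1%, and 1 member at 0.5 or less, against 10%. In 85 members the mutant lay below wild type in the dark and above it in red light, a crossing that held for 12.6% of eligible genes. These folds share libraries with the rule and are not independent of it. Genes that passed 1 limit only, compared further below, shared these differences in part. In red light a genotype fold of 2 or more held for 59.4% of members. It held for 50.3% of the 576 and 39.2% of the 143 other genes reduced in wild type. For the 1517 other genes raised in pubs hy2 it was 8.77%. In the dark a fold of 0.5 or less held for 63.2% of members and 38.4% of those 1517 genes. For the 576 and 143 genes it was 28.1% and 15.4%. The crossing held for 80.2% of members, against 46% of the 576, 26.6% of the 143 and 21.4% of the 1517 genes.

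Crosswise comparisons also varied between members. The pubs hy2 red light level was within 2-fold of the wild-type dark level in 71 of 106, below that range in 27 and above it in 8. The wild-type red light level was within 2-fold of the pubs hy2 dark level in 62, below that range in 28 and above it in 16. Among eligible genes 79.2% and 75.2% lay within 2-fold in these 2 comparisons. In the first, 11.2% of eligible genes lay below that range and 9.54% above it, against 25.5% and 7.55% of members. In the second, 11.7% lay below and 13.1% above, against 26.4% and 15.1% of members.

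**Figure D4:**
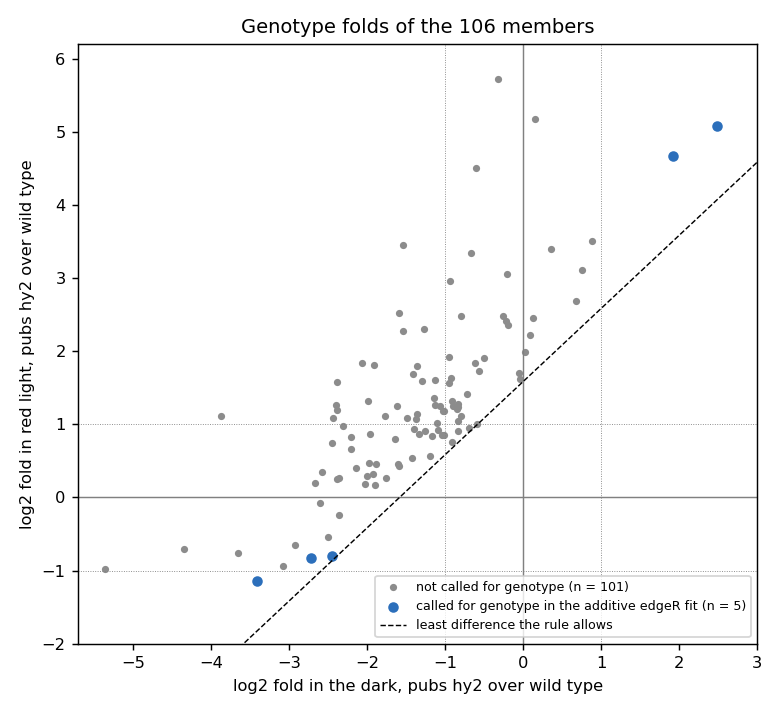
Log2 fold of pubs hy2 over wild type in the dark (x axis) and in red light (y axis) for the 106 members, with 1 library per group. Points cannot lie below the dashed line, and 85 of them sit at the upper left, below wild type in the dark and above it in red light. The 5 blue points were called for genotype in the additive edgeR fit, whose error holds the difference for which the members were picked.

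The mean of the dark and the red light log2 genotype fold is not computed from the 2 folds of the rule. It uses the same 4 libraries, 2 of them with the read minimum, so it is not independent of how the members were picked. Over the members it had a median of -0.06, against -0.18 over eligible genes, when reads were scaled by library sums. TMM scaling gave 0.02 and -0.09, so the sign of the members' median depended on the scaling, which shifts all genes alike. As linear folds, 18 members reached 2 or more, against 8.99% of eligible genes, and 16 were at 0.5 or less, against 9.4%. The members had fewer reads, with a median of 126 in wild-type dark against 482 in eligible genes, and the part of this was not tested.

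An additive fit of genotype and light over all 4 libraries, 2 per genotype, gives a test of this genotype effect across all genes. For the members the result is a description only, for the reason given at the end of this paragraph. At a Benjamini-Hochberg adjusted p under 0.05 in edgeR's quasi-likelihood test, 5 of the 106 members were called, against 23.1% of the 20409 genes tested. Of these 5, 2 were higher in pubs hy2, against 14% of genes tested, and 3 were lower, against 9.08%. At an unadjusted p under 0.05 it was 15 members, against 39.1% of genes tested. DESeq2 called 17 members, against 12.5% of the 32273 genes it was given and 19.5% of eligible genes. The limma fit called 1 member, against 15.1% of 20409 genes and 12.7% of eligible genes. The fit has 1 residual degree of freedom, and its error holds the genotype by light difference for which the members were picked. The members' p-values therefore depend on the choice of members, so the counts are given as a description and nothing is read from them about the members' genotype levels.

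The members with the highest mean genotype fold were Pp1s55_224V6 (13.7), Pp1s38_148V6 (9.82) and Pp1s53_125V6 (6.49, described above). Pp1s55_224V6 had 41.3 and 22.4 RPKM in pubs hy2 after red light and in the dark, against 1.19 and 4 RPKM in wild type. Pp1s38_148V6 had 10.3 and 5.61 RPKM in pubs hy2 and 0.392 and 1.46 RPKM in wild type. Both mutant libraries exceeded both wild-type ones in these 2 genes, whose red light folds were 1.85 in pubs hy2 for both and 0.305 and 0.275 in wild type.

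The lowest mean genotype folds were those of Pp1s149_26V6 (0.111) and Pp1s283_60V6 (0.173), described above for their pubs hy2 folds, and of Pp1s409_42V6 (0.207). Pp1s409_42V6 had 6.35 and 3.11 RPKM in pubs hy2 after red light and in the dark, against 13.8 and 32.9 RPKM in wild type. The abundant members Pp1s34_442V6 and Pp1s70_252V6 had mean genotype folds of 0.291 and 0.293. Pp1s70_252V6 had 18.2 and 10.7 RPKM in pubs hy2 and 31.7 and 70.2 RPKM in wild type. In each of these 5 genes both mutant libraries lay below both wild-type ones.

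Members were mostly weakly expressed. Their mean RPKM over the 4 libraries had a median of 3.15, against 13.2 for eligible genes. In 5 equal bins of eligible genes by mean RPKM, the lowest bin (up to 5.54 RPKM) held 70 of the 106 members, the next 3 bins held 12, 10 and 10, and the highest bin (from 32.7 RPKM) held 4. Single limits were also passed more often at low levels. In the lowest bin 17.3% of genes passed the limit in pubs hy2 and 10.8% that in wild type, against 6.85% and 4.54% in the highest bin. Of the genes reduced in wild type, members made up 20.5% at the lowest level and 2.78% at the highest. The part of low read numbers in the pattern was not tested.

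**Figure D5:**
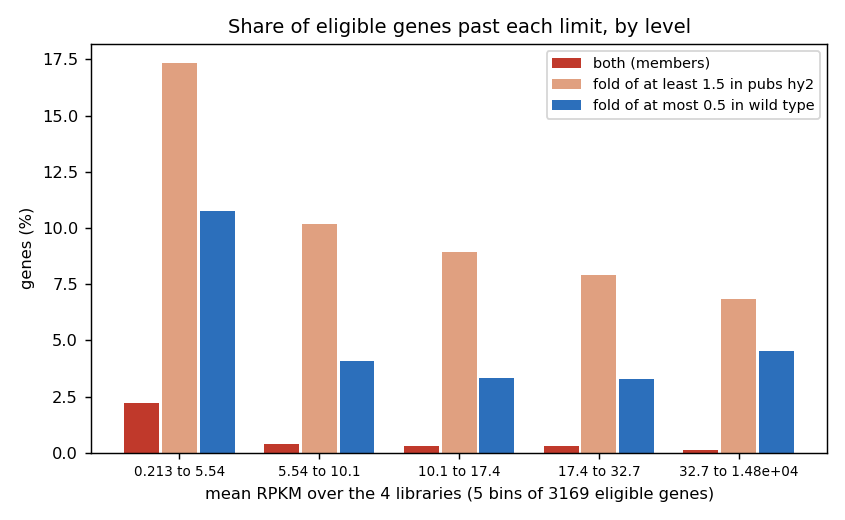
Share of eligible genes (%) that passed both limits (members), the limit of 1.5 in pubs hy2 and the limit of 0.5 in wild type, in 5 bins of 3169 genes by mean RPKM over the 4 libraries. All 3 shares are highest in the lowest bin, where 2.21% of genes were members, against 0.126% in the highest bin.

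Gene length had a median of 1.85 kb in the members and 1.86 kb in eligible genes. Very short genes of under 0.25 kb made up 5 of the 106 members and 1.01% of eligible genes. Multi-mapping reads were absent in all 4 libraries for 102 members, and the largest share in any library was 7.14%.

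Among the 825 eligible genes reduced in wild type, 576 had a pubs hy2 fold between 0.667 and 1.5 and 143 a fold of at most 0.667. The wild-type fold had a median of 0.366 in the members, 0.389 in the 576 genes and 0.375 in the 143 genes. Mean RPKM had medians of 3.15, 8.58 and 9.61 in these groups. The mean genotype fold had medians of 0.956 in the members, 1.28 in the 576 genes and 1.24 in the 143 genes, and it was above 1 in 48.1%, 62.3% and 60.8% of them. The 1517 genes that passed the limit in pubs hy2 but not that in wild type had a median of 0.679. The members' median thus lay between those of the genes reduced in wild type and of the genes raised in the mutant, which is a description without a test.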

How the data were processed

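Poly-A RNA of 4 libraries was sequenced, 1 per group. Each file deposited by the authors gives an estimated count of reads per gene (95.4% to 95.6% of values whole), an RPKM value and the fraction of a gene's reads that multi-map, per the file headers. Aligner, build and annotation are not given in the sources used here. For the members, the rule used the deposited reads unrounded. The total implied by the RPKM exceeded the summed reads by 11.8% to 14.4%. Intervals and the additive fit used rounded counts. Intervals cover counting error only, since no group had a replicate. Reads carry no molecular identifiers, so copies of 1 molecule would count as separate reads and the intervals may be too narrow. The protocol states no strand. The additive fit ran in edgeR 4.0.16 (TMM, filterByExpr, 1 residual degree of freedom), with DESeq2 1.42.0 and limma 3.58.1 (pseudocount 1) as alternatives, in R 4.3.3. Its p-values rest on the genotype by light difference as error, since no replicate library measured the spread between cultures. Whether libraries came from separate cultures is not stated. The rest used Python 3.11.15, numpy 2.4.6, pandas 2.3.3 and scipy 1.17.1. The fit was tested on simulated counts without a light effect or a genotype by light difference. The interval was tested on simulated counts with counting error only. Both settings are simpler than these data. Named members are the 8 highest ratios of folds, the 5 extremes of each fold, the 6 most abundant, the 3 extremes of the mean genotype fold and the 3 genes on each side of each limit. Members and rules were chosen with earlier results of these data known.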

Additional observations from a re-analysis of the deposited data

Results flagged for a closer look

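The red light fold ran in opposite directions in the genotypes for all 106 members, with a median log2 ratio of the pubs hy2 fold to the wild-type fold of 2.46. The members were picked for this, and no group had a second library, so that difference was not tested.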

How the results depend on the processing

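The number of members followed the limits more than the scaling. TMM gave 99 members, DESeq2 size factors 89, the authors' RPKM 113 and sums without the 100 most abundant genes 109. A minimum of 20 reads gave 163 members, a minimum of 100 gave 53 and none gave 607, while 40 reads in each library, added after seeing the data, gave 49. Fold limits in wild type and pubs hy2 of 0.4 and 1.5 gave 64 members, of 0.5 and 2 gave 39, and of 0.4 and 2 gave 21. Intervals wholly past the limits left 17, and an assumed coefficient of variation of 0.2 left 41. The other 7 changes of the rule gave 93 to 118. A scaling shifts all genes of a comparison alike. The members' median log2 genotype fold in the dark was -1.29, but -1.18 with TMM and -1.14 with DESeq2 size factors, and that of the mean of dark and red light was -0.06, but 0.046 with DESeq2 size factors. The other 17 medians moved by under 0.1. Scaling moved the median dark genotype fold of eligible genes from -0.21 to -0.10 (TMM) and -0.06 (DESeq2) on the log2 scale. Members called for genotype numbered 5 in edgeR (23.8% of eligible genes were called), 17 in DESeq2 (19.5%), 1 in limma (12.7%) and 6 to 7 under other edgeR settings (23.3% to 27.3%). As above, these counts are descriptions and not tests of the members. No paired analysis was possible because each group has 1 library, and for the same reason no library could be left out of a group.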
